A study of Mus musculus with 3 samples.

Results

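The genes described here are the mouse genes named as proteasome subunits, activators, inhibitor and assembly factors, measured in resting macrophages. Members were the genes whose symbol begins with Psma to Psmg followed by a digit and that have at least 1 protein-coding transcript in the deposited transcript tables. This rule found 50 genes among 55536 annotated genes, of which 21901 have a protein-coding transcript, and it left out 4 genes with -ps in the symbol. The samples were 3 libraries of ribosome-depleted total RNA from the cytosolic fraction of primary C57BL/6J bone marrow-derived macrophages, labelled as biological replicates 1, 2 and 3 at 0 min of a 100 ng/ml lipid A stimulation. They form 1 group with the same starting amount of RNA (1 µg), so no treated group or second compartment was compared. All 3 libraries carry 1 donor label, and age and sex were not collected per the labels, so the SDs and p-values below reflect variation among these libraries alone, part or all of which may be technical.

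The proteasome is the large protease that breaks down proteins tagged with ubiquitin. Its 20S core is a barrel of alpha and beta rings in which only the beta1, beta2 and beta5 subunits cut, and its 19S regulatory particle, made of a base and a lid, recognises, unfolds and feeds in the substrate. Immune cells and interferon-treated cells can build an immunoproteasome, in which beta1i, beta2i and beta5i take the place of the constitutive catalytic subunits and change which peptides are made for MHC class I. The PA28 activators open the core without ubiquitin or ATP.

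Expected counts over all genes summed to 26318761, 41897257 and 56290298 in replicates 1, 2 and 3. The 50 genes together held 0.281%, 0.260% and 0.234% of these counts. Levels of different genes are compared in TPM, the abundance of transcripts after division by their length, with equal totals across libraries. TPM of most members was highest in replicate 1, but their summed share of all TPM (0.142%, 0.113% and 0.102%) spread more than their share of the TPM of protein-coding genes (0.541%, 0.513% and 0.469%). Libraries were therefore compared in log2 CPM, counts scaled to library size with edgeR's TMM factors, where the median gene of replicate 1 differed from the other libraries by -0.01. All 6 macrophage markers were detected. The markers of T cells, B cells, dendritic cells, neutrophils, fibroblasts, thymic epithelium and male germ cells were each under a TPM of 1 in every library, and their summed TPM per list reached at most 0.79.

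A TPM of at least 1 in all 3 libraries was taken as detection, which 47 of the 50 genes (94%) reached. The same level was reached by 17.0% of all genes and by 41.2% of genes with a protein-coding transcript. The median over the detected members was a TPM of 19.7, beside 7.19 for detected protein-coding genes in general. The 3 genes under the level were Psma8, the alpha4 variant of testis, Psmb11, the beta5t subunit of the thymic cortex, and Psmc3ip, which is a partner of meiotic recombinases and a proteasome subunit by name only. Psma8 was listed at a TPM of 0.41, 0.44 and 0.39 in replicates 1, 2 and 3, from 28, 51 and 59 expected counts. Psmc3ip had a TPM of 0.39, 0.42 and 0.33. Psmb11 had 0 counts in each library in the gene tables, where up to 3 counts, or 0.114, 0.0716 and 0.0533 CPM, could have gone unseen, counting error only. The kallisto-format tables assigned it 4.36, 2.04 and 27.6 estimated counts, at a TPM of at most 0.022.

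**Figure D1:**
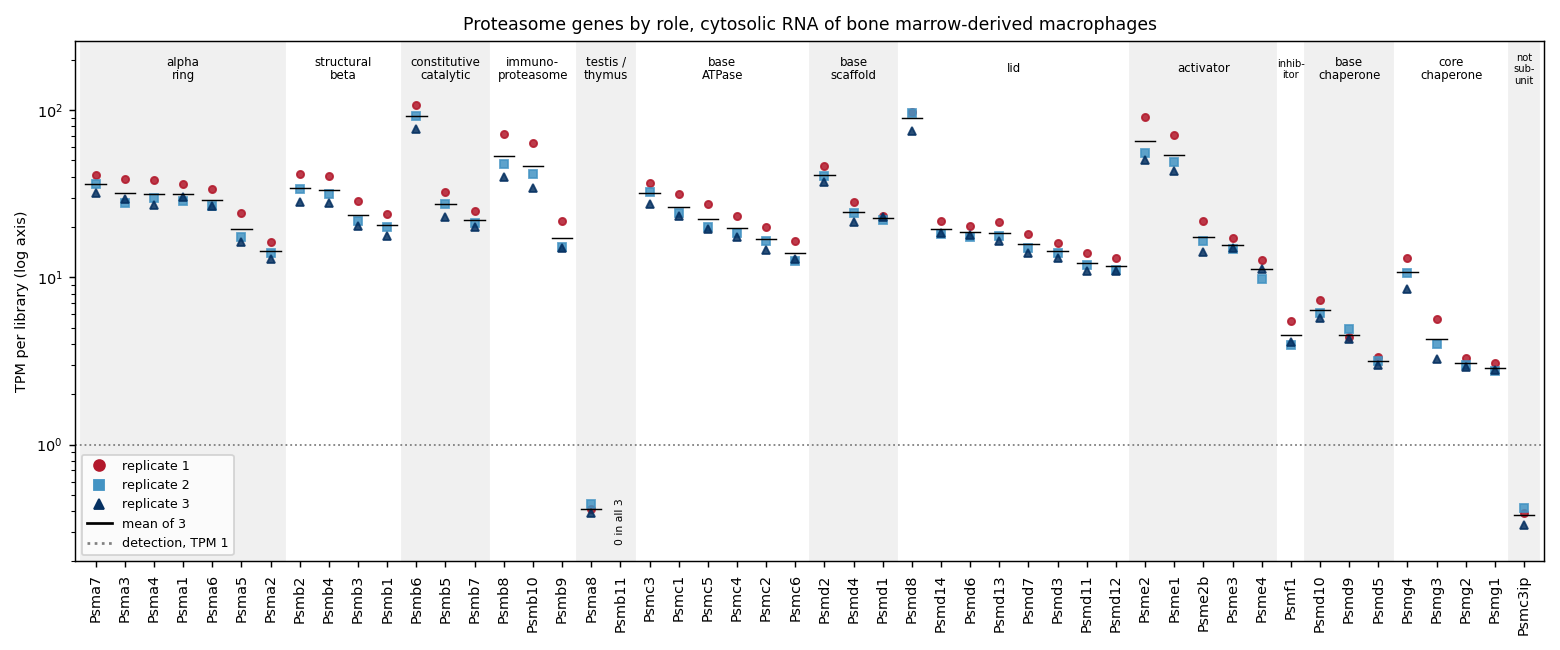
TPM of the 50 genes in each of the 3 libraries on a log axis, grouped by role, with a short line at the mean of the 3 libraries and a dotted line at a TPM of 1. By their means, most standard core and regulatory subunits lie in one band between 10 and 40, and Psmb6, Psmd8 and Psmd2 lie above it. Psmb8, Psmb10, Psme1 and Psme2 also lie above it, and the inhibitor Psmf1 and the assembly chaperones other than Psmg4 lie below it.

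Most messages for the standard 26S particle lay within a band of TPM with round limits. Its highest and lowest means, of Psmb6 and Psmd12, differed 7.93-fold, and the share of all genes in the band was not computed. Of its 31 subunits with Psm names (alpha ring, beta ring with the constitutive catalytic subunits, base and lid), 28 had a mean TPM between 10 and 40. The other 3, Psmb6, Psmd8 and Psmd2, lay above the band and none lay below it. Adrm1 and Sem1, subunits without Psm names, were counted with the partners below, at mean TPMs of 14.9 and 28.9.

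The alpha ring, which forms the gate of the core, had a median TPM of 31.6 over 7 genes. Psma7 was the highest of the ring, with a TPM of 41.00, 36.17 and 32 in replicates 1, 2 and 3. Psma2 was the lowest, with 16.36, 13.91 and 12.85, a 2.53-fold difference between the gene means. The libraries of these 2 genes did not overlap, but the genes were picked as extremes by the same values, so this adds no support.

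The 4 structural beta subunits, which complete the inner ring but do not cut, had a median TPM of 28.4. Psmb2 (beta4) was the highest at 41.22, 33.59 and 28.30 and Psmb1 (beta6) the lowest at 23.90, 19.95 and 17.58. Their means differed 1.68-fold. Their libraries did not overlap, but both genes were likewise picked by these values.

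In the regulatory particle, the 6 ATPases of the base, which unfold the substrate, had a median TPM of 20.9. Psmc3 (Rpt5) led them with 36.49, 32.22 and 27.56, and Psmc6 (Rpt4) was lowest with 16.41, 12.50 and 12.86. The 3 base scaffold and ubiquitin receptor genes with Psm names had a median of 24.7. Among these, Psmd2 (Rpn1) was measured at 46.16, 40.38 and 37.06 and Psmd1 (Rpn2), its fellow scaffold, at 23.36, 21.96 and 22.88. Psmd1 spread little in TPM and was the only one of the 3 whose lowest library was replicate 2.

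The lid, which carries the deubiquitinase Psmd14, had a median of 17.1 over its 8 genes with Psm names. Psmd8 (Rpn12), the last subunit to join the lid, stood apart from it at 96.96, 95.86 and 74.66. The lowest lid gene, Psmd12 (Rpn5), was at 13.02, 11.03 and 10.85, a 7.66-fold difference between the means. Without Psmd8 no lid gene with a Psm name had a mean above that of Psmd14, whose libraries were at 21.72, 18.07 and 18.38.

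The assembly factors with Psm names lay below all 31 standard subunits with such names in mean TPM. The maturation factor Pomp, listed with the partners below, did not, at a mean of 38.7. The base chaperones Psmd5, Psmd9 and Psmd10 had a median TPM of 4.52. Psmd10 (gankyrin) was highest with 7.32, 6.11 and 5.75 and Psmd5 lowest with 3.33, 3.15 and 3.01. The 4 core chaperones had a median of 3.68. Psmg4 was highest with 13.08, 10.55 and 8.54, and Psmg1 lowest with 3.07, 2.76 and 2.79. All libraries of Psmg4 lay above all libraries of the other 3 core chaperones, but it was picked as the highest by these values.

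The inhibitor Psmf1 (PI31) was measured at 5.52, 3.96 and 4.13. Every one of its libraries was below every library of every standard subunit.

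The partners of the proteasome outside the Psm names were also present. Of 22 listed partners, which include shuttle factors, the maturation factor Pomp and the transcription factor Nfe2l1 that drives proteasome genes, 21 matched a gene in the tables and all 21 were detected, with a median TPM of 12.1. The highest was Vcp, the unfoldase that delivers substrates, at a mean TPM of 58.0 ± 2.43 (SD, n = 3). Pomp followed at 38.7 ± 4.87 (SD, n = 3) and Nfe2l1 at 29.1 ± 0.386 (SD, n = 3).

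The central contrast is between the catalytic subunits that occupy the same position in the core. For beta5, the chymotrypsin-like site, the immunoproteasome gene Psmb8 had a TPM of 72.29, 47.37 and 39.55 in replicates 1, 2 and 3 and the constitutive gene Psmb5 had 32.53, 27.48 and 22.92. For beta2, the trypsin-like site, Psmb10 had 64.03, 41.47 and 34.30 and Psmb7 had 25.03, 21.15 and 19.94. For beta1, the caspase-like site, Psmb9 had 21.74, 15.09 and 15.05 and Psmb6 had 106.85, 92.44 and 77.46.

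In each library Psmb8 and Psmb10 were above their constitutive partners and Psmb9 was below its partner. The log2 TPM difference was 0.91 ± 0.21 for Psmb8 minus Psmb5 (1.88-fold), 1.04 ± 0.29 for Psmb10 minus Psmb7 (2.05-fold) and -2.43 ± 0.17 for Psmb9 minus Psmb6 (Psmb9 5.37-fold lower), each mean ± SD over 3 libraries. The exact two-sided sign-flip permutation test gave p = 0.25 for each pair, also after Benjamini-Hochberg adjustment over the 3 pairs, and 0.25 is the smallest p that 3 libraries allow. The mean over the pairs was -0.16 ± 0.20 (exact permutation p = 0.5), with replicate 1 above 0 and the other libraries below it. The immunoproteasome gene made up 65.2% ± 3.3 of the beta5 pair, 67.1% ± 4.4 of the beta2 pair and 15.7% ± 1.5 of the beta1 pair (SD, n = 3).

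These gene-level values add up every annotated transcript of a gene, and the catalytic pairs differ in how much of that sum is coding. Transcripts annotated as retained introns, processed transcripts or targets of nonsense-mediated decay held 51.1% ± 2.6 of the TPM of Psmb8 and 52.8% ± 5.3 of that of Psmb10 in the kallisto-format table, 18.9% ± 0.89 for Psmb9 and 14.9% ± 1.9 for Psmb6 (SD, n = 3). For Psmb5 no such transcript held any TPM and for Psmb7 the share was 0.26% ± 0.24 (SD, n = 3). The RSEM-format table gave 50.7% ± 3.25 for Psmb8, 59.3% ± 2.2 for Psmb10 and 10.7% ± 1.58 for Psmb9 (SD, n = 3).

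With protein-coding transcripts alone, the lead of Psmb8 and Psmb10 was gone. In the kallisto-format table Psmb8 was at a TPM of 14.75, 11.29 and 7.07 beside 12.99, 13.25 and 8.88 for Psmb5. Psmb10 was at 10.31, 9.30 and 6.10 beside 10.11, 10.66 and 8.0 for Psmb7. In this table, replicate 1 alone kept the immunoproteasome gene above its partner in both pairs.

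The mean log2 differences of coding transcripts were -0.12 ± 0.27 for beta5 and -0.19 ± 0.21 for beta2 (SD, n = 3, exact permutation p = 0.5 for each), within about 1 SD of equal levels. The RSEM-format table, added as an alternative after the data were seen, gave -0.12 ± 0.30 and -0.26 ± 0.22 (SD, n = 3). The mean over the 3 pairs went from -0.16 to -0.95 ± 0.20 in the kallisto-format and -0.90 ± 0.21 in the RSEM-format table, below 0 in 3 of 3 libraries (SD, n = 3, exact permutation p = 0.25 for each). The beta1 pair kept its direction, at -2.54 ± 0.20 in the kallisto-format and -2.33 ± 0.21 in the RSEM-format table (SD, n = 3).

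**Figure D2:**
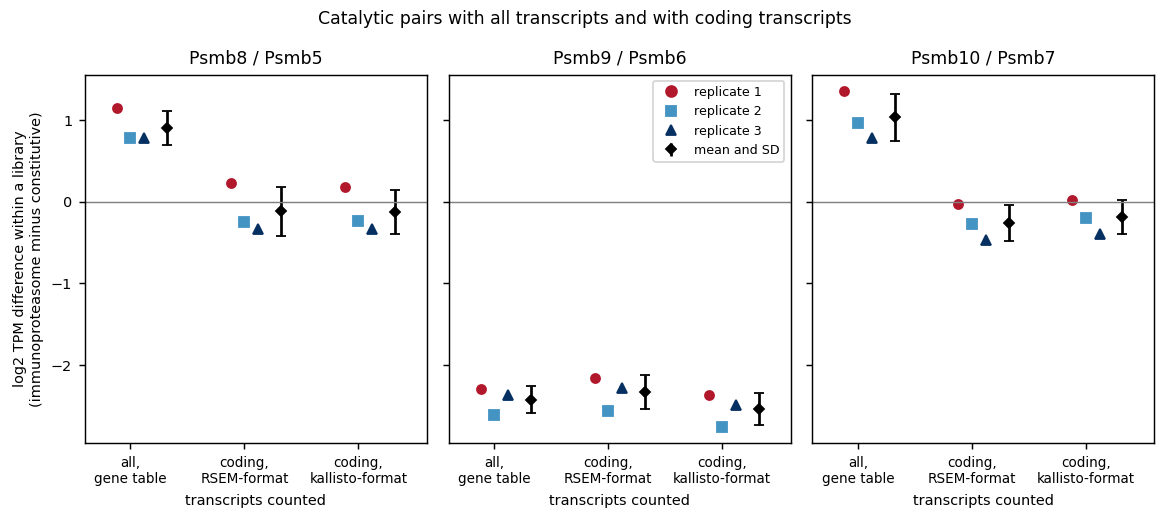
Log2 TPM difference of each immunoproteasome subunit from the constitutive subunit of the same position, within each library, for all transcripts of a gene and for coding transcripts in both transcript tables, with mean and SD in black. The Psmb8 and Psmb10 pairs lie above 0 with all transcripts and around or below 0 with coding transcripts, and the Psmb9 pair lies below -2 throughout.

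Psmb8 (GRCm38/mm10, chr17:34197721-34201454, plus strand) lies in the MHC class II region beside Tap1 and Psmb9. Nearly all of its non-coding share belonged to 1 retained-intron transcript of 1234 bases, ENSMUST00000236557.1, with 49.8% ± 1.7 of the gene's TPM, while the main coding transcript of 840 bases, ENSMUST00000173441.8, held 46.8% ± 2.5 (SD, n = 3, kallisto-format). The models share 799 bases. The retained-intron model alone holds an intron of 190 bases, chr17:34199381-34199570, which lies between coding exons and is in no protein-coding model of the gene. It also has 245 bases at its 3′ end that the main coding model lacks, since that model stops at its last coding base. A second coding model, ENSMUST00000025196.8, holds those 245 bases and took 2.17% ± 0.13 of the gene's TPM (SD, n = 3). How the reads fell between the intron and the 3′ end cannot be seen in these tables. The intron is printed from the GENCODE M21 transcript, in capitals between 20 exon bases on each side (chr17:34199361-34199590), since it is the stretch that would mark the non-coding form.
Psmb8 retained intron: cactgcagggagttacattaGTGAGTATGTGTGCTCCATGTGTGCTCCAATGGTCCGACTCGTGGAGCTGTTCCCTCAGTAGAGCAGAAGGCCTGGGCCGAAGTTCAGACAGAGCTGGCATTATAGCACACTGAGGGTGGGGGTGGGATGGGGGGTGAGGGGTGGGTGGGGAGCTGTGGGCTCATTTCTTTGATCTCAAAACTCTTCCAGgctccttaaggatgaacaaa

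Psmb10 (chr8:105935735-105938444, minus strand) was different in kind. Its leading non-coding model is a processed transcript of only 426 bases, ENSMUST00000212332.1, beside a coding transcript of 1311 bases, ENSMUST00000034369.9, and 378 of its bases are shared with the latter. It took 46.3% ± 7.1 of the gene's TPM (SD, n = 3). In estimated counts, which are not divided by length, the non-coding share of Psmb10 was 19.5% ± 2.0 in the kallisto-format and 24.9% ± 0.30 in the RSEM-format table, while that of Psmb8 was 62.0% ± 2.3 and 61.9% ± 3.1 (SD, n = 3). The Psmb10 share thus fell below its TPM share when length was left out, and that of Psmb8 rose. The 44-base first exon of the short model (chr8:105936982-105937025) ends at the last intron base before a coding exon that the model skips, and joins the next coding exon (chr8:105936725-105936754 in the printed stretch). The first line shows that first exon in capitals, the second the 44 coding bases that precede the same exon in the coding transcript (chr8:105936866-105936909), because only the capitals tell the models apart at this junction.
Psmb10 non-coding junction: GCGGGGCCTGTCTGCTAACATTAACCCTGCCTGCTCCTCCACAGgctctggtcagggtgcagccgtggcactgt
Psmb10 coding junction: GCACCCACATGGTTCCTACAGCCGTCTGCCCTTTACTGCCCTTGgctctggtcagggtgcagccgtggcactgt

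Large non-coding shares were not a general property of proteasome genes. A mean share of at least 30% was found for 5 of the 47 detected members in the kallisto-format table (10.6%), beside 12.6% of all detected genes with a protein-coding transcript. The RSEM-format table gave 4 of 47 (8.51%) beside 11.4%. The median share was 1.83% over members and 4.76% over all such genes in the kallisto-format table, and 40 of the 47 members were under 10%.

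The other members at or above 30% were Psma3, Psmd13 and Psmc6. Psma3, the alpha7 subunit, had 59.7% ± 2.0 of its TPM in non-coding models in the kallisto-format and 48.5% ± 7.3 in the RSEM-format table (SD, n = 3). Psmd13 (Rpn9) had 36.2% ± 7.8 and 39.3% ± 8.2, most of it in a model marked for nonsense-mediated decay that differs from the coding transcript inside the gene by skipping 1 exon of 35 bases (SD, n = 3). Psmc6 had 36.3% ± 3.0 in the kallisto-format and 6.9% ± 3.4 in the RSEM-format table (SD, n = 3). The tables thus differed most for Psmc6 among these 3 genes.

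**Figure D3:**
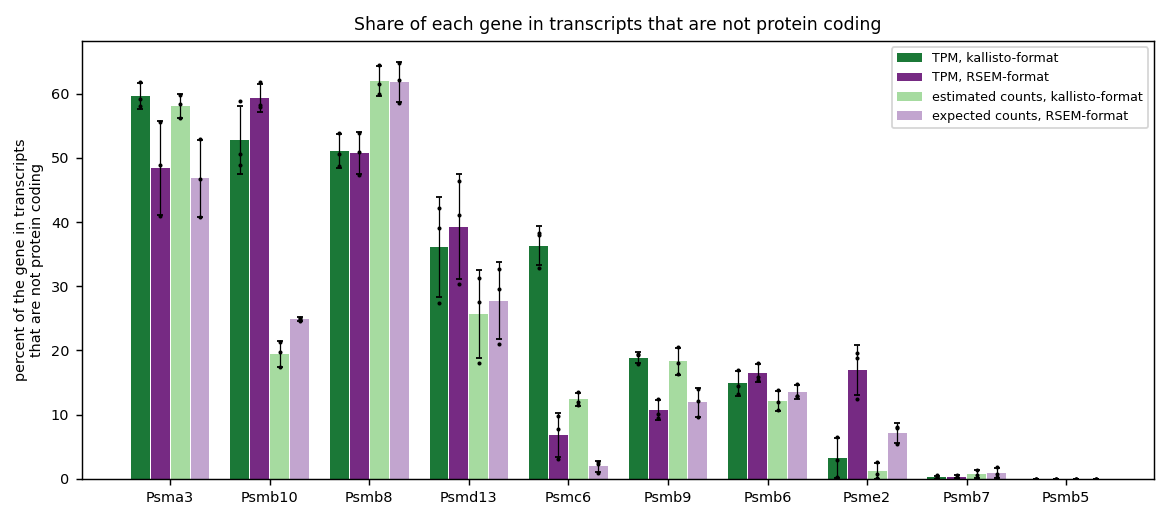
Percent of a gene's TPM or counts in transcripts not annotated as protein coding, as bars of the mean with SD and a point per library, from both transcript tables. Psmb8, Psmb10 and Psma3 are near or above 50% in TPM, Psmb10 falls to 19.5% and 24.9% in counts, and Psmb5 and Psmb7 are at or near 0.

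Among the activators, PA28 alpha and beta led. Psme1 (PA28 alpha, chr14:55578123-55581529) had a TPM of 70.81, 48.63 and 42.98 in replicates 1, 2 and 3. Psme2 (PA28 beta, chr14:55587441-55591113), its partner in the cytoplasmic ring, had 90.97, 55.57 and 50.29. Both were highest in replicate 1, and every library of each lay above every library of the other activators.

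Psme3, PA28 gamma of the nucleus, had 17.30, 14.74 and 15.03. Psme4, the large single-chain activator PA200, had 12.68, 9.78 and 11.17. The mean log2 TPM of Psme1 and Psme2 exceeded that of Psme3 and Psme4 by 2.13 ± 0.30 (4.38-fold, SD, n = 3), higher in 3 of 3 libraries (exact two-sided sign-flip permutation p = 0.25). The cells' nuclear fraction was not measured in these libraries, so these values, like those of all members, are levels of cytosolic RNA only. Without division by length the difference was -0.23 ± 0.27 (SD, n = 3), since the long Psme4 transcript gives more counts per molecule.

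Psme2b, an annotated near copy of Psme2 on chromosome 11 (chr11:48945354-48946190) with 1 exon where Psme2 has 11, was listed at 21.73, 16.42 and 14.21. Its transcript and that of Psme2 matched at 789 of 794 aligned bases (99.4%), and all 5 differences fell in the 717 aligned coding bases. Of the 31-base words in Psme2b, 76.5% also occur in Psme2, and 33.5% of those in Psme2 occur in Psme2b. How reads were divided between them is therefore uncertain, and the level of Psme2b is the part of a shared signal that the authors' counting assigned to it. The 60 coding bases with the most differences hold 3 of the 5 differences. These 3 are shown in capitals, since within this stretch only these letters separate the genes (Psme2 within chr14:55588049-55588246, across an intron, and Psme2b chr11:48945576-48945635, both on the minus strand).
Psme2: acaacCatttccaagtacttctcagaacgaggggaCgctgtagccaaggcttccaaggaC
Psme2b: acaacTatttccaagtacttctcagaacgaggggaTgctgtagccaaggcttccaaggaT

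Sequence shared with other genes, pseudogenes among them, touched further members too. In all, 10 members shared at least 10% of their 31-base words with other genes and 17 shared none. The same counts over all genes were not computed, so whether this is unusual cannot be told. Psmb5 shared 71.7%, most with the pseudogene Gm3375, and Psma5 58.7%, most with Gm8394. These pseudogenes were listed at a mean TPM of 0.067 and 0.23, so little was assigned to them. Psmb9 overlaps Tap1 on the opposite strand by 212 exon bases, with Tap1 at a mean TPM of 23.6. Psmb7 overlaps Nek6 on the opposite strand by 405 exon bases (11.8% of its exon bases), with Nek6 at a mean TPM of 10.7. Psmb8 overlaps the antisense gene Gm20496, listed at a TPM of 0 in each library, by 498. Whether the counting used strand is not given in the sources used here, so reads in those overlaps cannot be assigned to a strand.

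The 3 libraries did not differ alike across the proteasome genes. The SD of TMM log2 CPM over the libraries had a median of 0.10 over the 49 members past the filter on low counts and 0.12 over all 12413 genes past it. This order turned in log2(TPM + 1), at 0.19 beside 0.14, and without replicate 2, at 0.122 beside 0.115. The 4 largest SDs among members belonged to Psme2, Psmb8, Psmb10 and Psmb9. The fifth inducible gene, Psme1, ranked seventh, after Psmg3 and the weakly expressed Psmc3ip.

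Psme2 had a log2 CPM of 6.64, 6.12 and 5.98 in replicates 1, 2 and 3 (SD 0.35). Psmb8 had 6.68, 6.34 and 6.09 (SD 0.29). Psmb10 had 5.93, 5.69 and 5.40 (SD 0.27). In all 3 genes replicate 1 was highest and replicate 3 lowest.

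Psmb9 followed at 5.17, 4.81 and 4.71 (SD 0.24) and Psme1 at 6.66, 6.40 and 6.23 (SD 0.22), in the same order of libraries. Among all genes past the filter, the SDs of these 5 genes lay at percentiles from 75.4 (Psme1) to 87.2 (Psme2). Counting alone would give SDs between 0.025 and 0.042 for these 5 genes. At the other end, Psme3, the PA28 that interferon does not induce, had a log2 CPM of 6.16, 6.17 and 6.16 (SD 0.006), below its counting SD of 0.028. The deubiquitinase Psmd14 had 5.61, 5.58 and 5.58 (SD 0.018). Members of the same activator family thus stood at both ends of the spread, although 9 of the 49 members lay below their counting SD and cannot be ranked among themselves. The share of all genes below their counting SD was not computed.

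**Figure D4:**
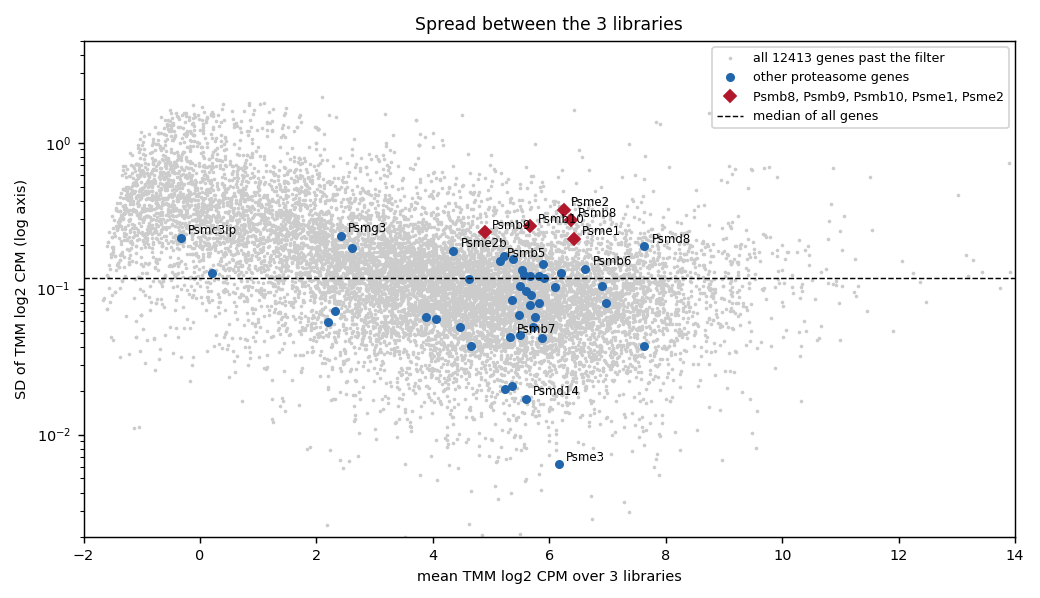
SD of TMM log2 CPM over the 3 libraries (log axis) against the mean level, for 12413 genes in grey, 5 interferon-inducible proteasome genes in red and the other members in blue. The red points lie above the dashed median of all genes at 0.12, and Psme3 lies lowest of the members.

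Replicate 1 was the highest library for 31 of the 49 members (63.3%), beside 33.0% of all genes past the filter. For the 5 interferon-inducible genes it was highest in 5 of 5, above the mean of the other libraries by 0.35 to 0.59 log2 units with a median of 0.41. For the constitutive catalytic genes Psmb5, Psmb6 and Psmb7 it was highest in 0 of 3, and the difference was 0.04 to 0.12. Yet replicate 1 was highest for 26 of the 44 members that are not interferon-inducible (59.1%), so this was not particular to the inducible genes. It was highest for 6 of 7 alpha ring, 4 of 4 structural beta and 5 of 6 base ATPase genes. For the lid it was highest in 3 of 8 genes and for the base scaffold in 1 of 3. These counts moved with library size as the only scaling, where replicate 1 was highest for 49.5% of all genes, 38 of 49 members, 2 of 3 constitutive catalytic genes and still 5 of 5 interferon-inducible genes. Over the 44 members that are not interferon-inducible the median was 0.08, with a range from -0.18 for Psmd1 to 0.37 for Psmg3. The ranges overlap, since Psmg3, a gene of 172 counts in replicate 1, lay above Psme1. The 5 genes stayed above the median of all genes with TMM, with median-of-ratios scaling and with library size only, the lowest of them at 0.35, 0.36 and 0.43.

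Without replicate 1 the median SD of the 5 genes was 0.12, beside 0.10 for all genes, against 0.27 and 0.12 with it. Replicate 1, which is also the library with the fewest counts, thus carried much of their spread but not all of it. Without it the 3 immunoproteasome genes still had a median SD of 0.18. The constitutive catalytic genes had 0.19 without it, so the remaining spread was not particular to the immunoproteasome genes.

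Interferon-stimulated genes outside the proteasome were also highest in replicate 1. All 20 listed genes, chosen with earlier results of these data known, were detected, beside 41.2% of genes with a protein-coding transcript. Replicate 1 was highest in 20 of 20 with every scaling, with TMM by a median of 0.69 log2 units (0.24 to 1.87). Of all genes past the filter it was highest for 33.0% with TMM, 34.1% with median-of-ratios scaling and 49.5% with library size only. The summed TPM of the 20 listed genes was 1136 in replicate 1, 571 in replicate 2 and 592 in replicate 3. The largest difference was that of Cxcl10, a chemokine, with a TPM of 22.82, 5.81 and 4.75. The highest genes of the list, Bst2, Ifit2 and Ifit3, had means of 120, 89.8 and 80.2. The part of an interferon state in the order of the libraries was not tested.

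Genes that load peptides onto MHC class I did not all have the same highest library. Of 12 MHC class I loading genes, all detected, 7 were highest in replicate 1 (58.3%, beside 33.0% of all genes past the filter). The median difference was 0.12, with a range from -0.10 to 0.55. B2m, the light chain of MHC class I, had a TPM of 2217, 1514 and 1468, while the heavy chain gene H2-D1 had a log2 difference of -0.04. Tap1, the peptide transporter gene that shares 275 bases of promoter window (250 bases before to 50 after the start) with Psmb9, differed by 0.27 where Psmb9 differed by 0.41. Nlrc5, the activator of MHC class I genes, differed by 0.43. The 21 proteasome partners had a median of 0.02, with 8 highest in replicate 1 (38.1%). With library size as the only scaling, replicate 1 was highest for 10 of the 12 loading genes (83.3%) and 16 of the 21 partners (76.2%). The share of all genes was then 49.5%.

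**Figure D5:**
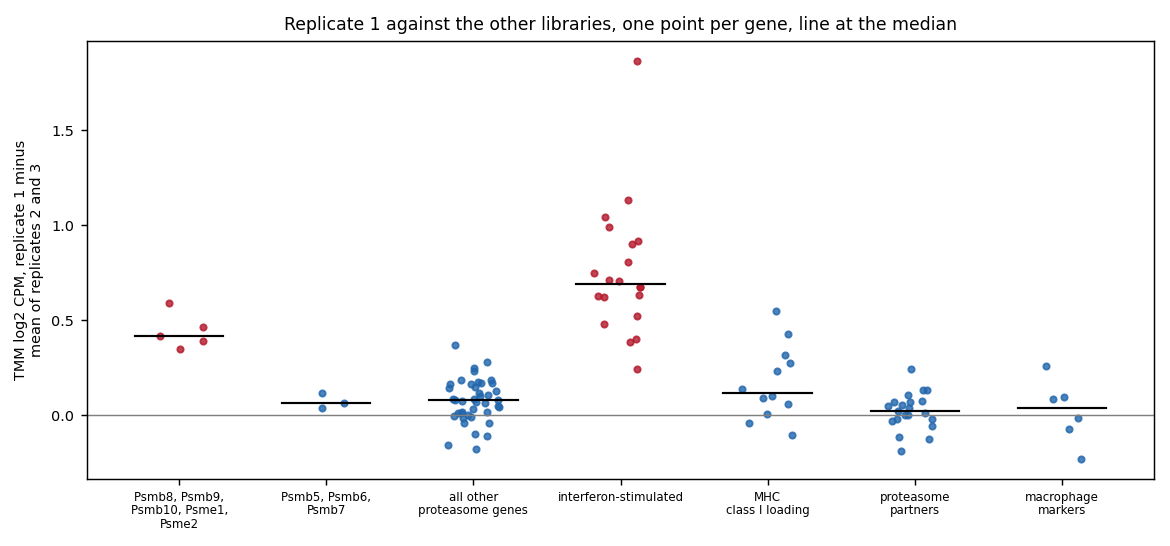
TMM log2 CPM of replicate 1 minus the mean of replicates 2 and 3, with 1 point per gene and a line at each list's median. All 5 interferon-inducible proteasome genes and all 20 interferon-stimulated genes lie above 0, at medians of 0.41 and 0.69, while the constitutive catalytic genes and the proteasome partners lie nearer to 0.

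Promoter windows of 42 of the 50 genes, from 250 bases before to 50 after the start, were matched by symbol in RefSeq (GRCm38.p6), and of these the 250 bases before the start were searched on both strands. The core of the interferon-stimulated response element (GAAA, any 2 bases, GAAA) was found for 3 members (Psmb3, Psmd4 and Psmd9) and for 3.46% of all genes. A gamma-activated site, TTCNNNGAA, was found for Psmb8 and Psmg1 and for 8.13% of all genes. The antioxidant response element TGANNNNGC was found for 17 members (40.5%) and 38.7% of all genes, the CCAAT box for 15 members (35.7%) and 37.5% of all genes, and the NF-kB motif (GGGA, any base, TTTCC) for no member and 0.414% of all genes. The element core and the gamma-activated site can overlap each other. Among the 5 interferon-inducible genes only Psmb8 had a gamma-activated site match in this window and none had the response element core. The Psmb8 match is shown in capitals, because this gene was among the most variable members. The match lies within a stretch at chr17:34198088-34198116 on the plus strand, which GENCODE places inside the gene, after the start of its main coding transcript. A match is a description of letters and not a bound site.
Psmb8 gamma-activated site match: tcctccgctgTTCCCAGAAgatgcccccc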

How the data were processed

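The authors deposited, per library, a gene table and a transcript table with RSEM-format columns and a transcript table with kallisto-format columns, per the file headers. They hold expected or estimated counts and TPM, which the authors scaled over all features. The build is mm10 with GENCODE M21, per the labels and the deposited notes; tool versions and strandedness are not given in the sources used here. The members, roles, gene lists and contrasts were chosen with earlier results of these data known.

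TPM of the gene table was used for levels, and log2 TPM differences within a library were tested by exact sign-flip permutation. Expected counts, rounded to whole numbers, were scaled by TMM in edgeR 4.0.16 (prior count 2, edgeR's filter on low counts, intercept-only design over all genes); there was no test between libraries. The TMM factors were 1.04, 0.992 and 0.971, and the SD step was tested on simulated data. Chi-square per degree of freedom between libraries was 40.6 to 63.8, so none was a copy of another. Shares of non-coding transcripts used transcript biotypes in the tables. Alternatives were other TPM estimates, pseudocounts, thresholds, scalings and each library left out. Genes given with every library were the catalytic pairs, activators, inhibitor, the highest and lowest of each role, undetected members and the extremes of spread. Sequences came from GENCODE M21 transcripts and RefSeq promoters. Of the listed partners, Paaf1 matched no gene in the tables. Some items are not reported here.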

Additional observations from a re-analysis of the deposited data

How the results depend on the processing

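No paired analysis was possible because there is 1 group, so replicate numbers pair no samples across groups (the differences between genes were taken within each library). With protein-coding transcripts only, Psmb8 minus Psmb5 turned to -0.12 in the kallisto-format and -0.12 in the RSEM-format table, and Psmb10 minus Psmb7 to -0.19 and -0.26. PA28 alpha and beta minus PA28 gamma and PA200 turned to -0.23 in counts not divided by length. The median level of all members was a TPM of 8.63 in the kallisto-format tables (19.4 in the gene tables), and the cause was not tested.

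Median SDs of log2(TPM + 1) were 0.19 for all members (0.14 for all genes), 0.23 for the constitutive catalytic genes and 0.44 for both the immunoproteasome and the interferon-inducible genes, and with library size only the immunoproteasome SD was 0.31. With each library left out in turn, the median SD ranged from 0.017 (without replicate 3) to 0.19 (without replicate 1) for the constitutive catalytic genes. It ranged from 0.18 (without replicate 1) to 0.39 (without replicate 2) for the immunoproteasome genes and from 0.12 to 0.39 for the interferon-inducible genes. The mean over the 3 catalytic pairs kept its sign but moved from -0.16 to -0.95 and -0.90 with coding transcripts. It is among 79 other recomputed main values that kept their direction and side of the threshold or stayed within their spread. With 3 libraries the sign-flip test could not pass a threshold of 0.05, and depth limits the low members. The SDs of 9 of the 49 members lay below their counting SD, and the same share over all genes was not computed. Among these 9 members, Psma8, Psmc3ip and the core chaperones Psmg1 and Psmg2 had few counts. The others, Psmd12, Psmd14, Psmd6, Psme3 and Psmf1, had more, so lying below the counting SD does not by itself mark low depth.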
